A study of Mus musculus with 6 samples.

Results

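The genes described here are read in germinal centre B cells as signs of activation or of contact with T cells, and are 8 of the 32452 gene symbols listed in the deposited count tables. They are Cd86, Icosl and Cd70 (ligands shown to T cells), Cd83, Cd72 and Slamf1 (other surface proteins), and Basp1 and Lmo2 (proteins inside the cell). They were chosen by name from a fixed list, drawn up with earlier results of these data known. All 8 were measured in each of the 3 tables. The cells were B cells sorted from mouse spleen after immunisation with an NP-haptenated antigen and alum adjuvant, and were profiled by 10x 5′-end single-cell RNA sequencing in 6 libraries. Day 7 was represented by 2 libraries of wild-type B220+ CD38- GL7hi cells and day 14 by 2 libraries of wild-type B220+ CD95hi GL7hi IgD- cells. The other libraries came from day 14 radiation chimaeras sorted by the same gate as the day 14 cells. In the control library, wild-type bone marrow had been given to irradiated Il4ra+/+ hosts, and in the knockout library (KO) to irradiated Ccl19Cre/+ Il4raf/f hosts, so the sorted B cells were wild type in both and the deletion lay in host cells with Ccl19-driven Cre. The labels do not say how many animals were pooled or that replicates were separate animals, so the p-values below measure only the spread between these libraries.

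In a germinal centre, B cells divide and mutate their antibody genes in the dark zone (DZ) and test their receptor against antigen held by follicular dendritic cells in the light zone (LZ), where they also receive help from T follicular helper cells. CD86 engages CD28 and CTLA-4 on T cells, ICOSL (encoded by Icosl) engages ICOS, and CD70 engages CD27. CD83 is a surface marker of light zone cells that opposes the MARCH1 ubiquitin ligase and so keeps MHC class II and CD86 on the membrane. CD72 is an inhibitory coreceptor that binds semaphorin 4D and recruits the phosphatase SHP-1, SLAMF1 is a self-ligating receptor of the SLAM family, BASP1 is a membrane-associated protein also found in corepressor complexes, and LMO2 is a LIM-domain bridge between transcription factors. Interleukin 4, named in the study's title, signals through the IL-4 receptor and the transcription factor STAT6.

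Depth differed with the experiment. The day 7 libraries held 1012 and 2530 cells with medians of 17277.5 and 18233.5 UMIs (unique molecular identifiers, each counted as 1 transcript), the day 14 libraries 9109 and 10648 cells with 3399 and 3178.5, the control library 8038 cells with 6676, and the KO library 7314 cells with 7185.5. The chimaera libraries shared 90 cell barcodes and the day 14 pair 135, while day 14 and chimaera libraries shared 96 to 109 per pair. All 8 germinal centre B cell markers were at 20 counts per 1e6 counts of the library (CPM) or more in every library, and the stromal markers summed to 0.167 CPM or less, although only 1 of the 5 (Ccl19) is listed in the chimaera table and 4 in the others. The Il4ra level was 54.0 CPM (control) and 63.1 CPM (KO), which checks nothing about the host deletion because the sorted cells were of donor origin.

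On the mouse genome build mm10 (GENCODE vM21 annotation), Cd83 lies on chr13:43784775-43803132 (plus strand), Cd86 on chr16:36603869-36666081 (minus), Cd72 on chr4:43446462-43454628 (minus) and Slamf1 on chr1:171767127-171801184 (plus). Icosl lies on chr10:78069302-78083913 (plus), Basp1 on chr15:25363277-25413764 (minus), Lmo2 on chr2:103957986-103981878 (plus) and Cd70 on chr17:57145997-57149777 (minus). Cd83 and Basp1 were the most abundant per library and Cd70 the least, although these levels are not corrected for transcript length. Over all cells, Basp1 stood at 296 and 434 CPM at day 7, 381 and 408 CPM at day 14, and 291 and 261 CPM in the control and KO libraries. Slamf1 was at 73.0, 80.5, 78.2, 82.1, 56.5 and 54.9 CPM in the same order, so both chimaera libraries were below the other 4. Icosl showed the same split, with 35.8 to 49.2 CPM in the 4 wild-type libraries and 25.9 and 21.6 CPM in the chimaeras. Cd86 was at 57.2, 49.8, 66.6, 65.6, 47.3 and 60.0 CPM and Lmo2 at 60.6, 76.7, 46.6, 49.2, 67.6 and 62.3 CPM. Cd70 was between 1.51 and 12.7 CPM. The 3 tables list different symbols, so levels set across them are approximate.

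The promoters of Cd72 and Slamf1 are shown because these genes gave different results in the chimaeras below. RefSeq promoters (build GRCm38.p6) were at hand for 4 of the 8 genes, namely Cd72, Slamf1, Icosl and Basp1, but not for Cd83, Cd86, Lmo2 and Cd70. The 250 bases before the start were searched on both strands for the STAT6-type motif of TTC and GAA with any 4 bases between, found in 5.85% of 32851 promoters, for the kB-type motif of GGG and TTTCC with any 2 bases between (1.41%), for the PU.1-type motif GAGGAAGT (2.44%) and for the E-box CAGCTG (13.0%). No pair of these motifs overlapped in the windows shown, and matches are in capitals. The Cd72 window, chr4:43454627-43454876 on the minus strand, held 1 PU.1-type match and none of the other motifs.
Cd72: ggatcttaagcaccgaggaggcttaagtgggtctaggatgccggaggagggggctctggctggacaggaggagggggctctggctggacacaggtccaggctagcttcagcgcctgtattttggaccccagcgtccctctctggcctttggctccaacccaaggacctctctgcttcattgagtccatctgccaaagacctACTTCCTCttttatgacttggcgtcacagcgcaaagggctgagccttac
The Slamf1 window, chr1:171766882-171767131 on the plus strand, held 1 STAT6-type match and none of the others.
Slamf1: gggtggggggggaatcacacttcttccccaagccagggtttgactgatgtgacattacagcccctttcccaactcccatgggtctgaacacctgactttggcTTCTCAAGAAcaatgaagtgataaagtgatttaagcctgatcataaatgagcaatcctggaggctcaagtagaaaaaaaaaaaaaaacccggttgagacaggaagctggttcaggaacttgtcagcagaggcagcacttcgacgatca
The Icosl and Basp1 windows held no match. A match describes letters only and is not evidence of binding.

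All but Basp1 of the 8 genes were higher in LZ-called than in DZ-called cells of every library. The zone calls are the authors', by a method not given in the sources used here, and may have used some of these genes, so this is a description without a test. A gene was counted as LZ-high when its log2 ratio was at least 0.5 in all 6 libraries at a mean of 20 CPM or more, which 2.52% of 5507 genes reached, while 5.25% met the mirror rule for lower. Cd83 was the most zone-dependent of the well-measured genes. Its level in LZ-called cells was 392 and 359 CPM at day 7, 378 and 405 CPM at day 14, 406 CPM for control and 649 CPM for KO. In DZ-called cells the level was 128 and 138 CPM, 134 and 129 CPM, 159 CPM and 260 CPM in the same order. The 2 sets did not overlap within any library, but DZ-called KO cells stood above DZ-called cells of every other library. The log2 ratio was 1.47 ± 0.14 (SD, n = 6). Lmo2 followed at 1.05 ± 0.23 (SD, n = 6), with 74.0 to 102 CPM in LZ-called cells and 33.3 to 64.1 CPM in DZ-called cells. Slamf1 (0.88 ± 0.18) and Cd86 (0.77 ± 0.16) also met the rule (SD, n = 6 for each).

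Cd72 and Icosl missed the rule through a single library each. For Cd72 the mean was 0.88 ± 0.20 (SD, n = 6) and the lowest value, 0.49 in replicate 2 of day 7, lay just under the limit. Icosl averaged 0.70 ± 0.21 (SD, n = 6), with 0.39 in the control library. Cd70 had the widest spread, 1.59 ± 0.43 (SD, n = 6), on a low level of 2.76 to 23.3 CPM in LZ-called cells, and was under the CPM minimum. Basp1 was the exception with -0.05 ± 0.24 (SD, n = 6): it was 0.08 and 0.17 at day 14, 0.15 and -0.04 at day 7, and -0.39 and -0.29 in the control and KO libraries. Restricting the comparison to G1-called cells raised the Cd72 ratio to 1.48, which then met the rule. Cd86 no longer met it there (0.68 ± 0.29, SD, n = 6), with 0.12 in the control library.

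**Figure D1:**
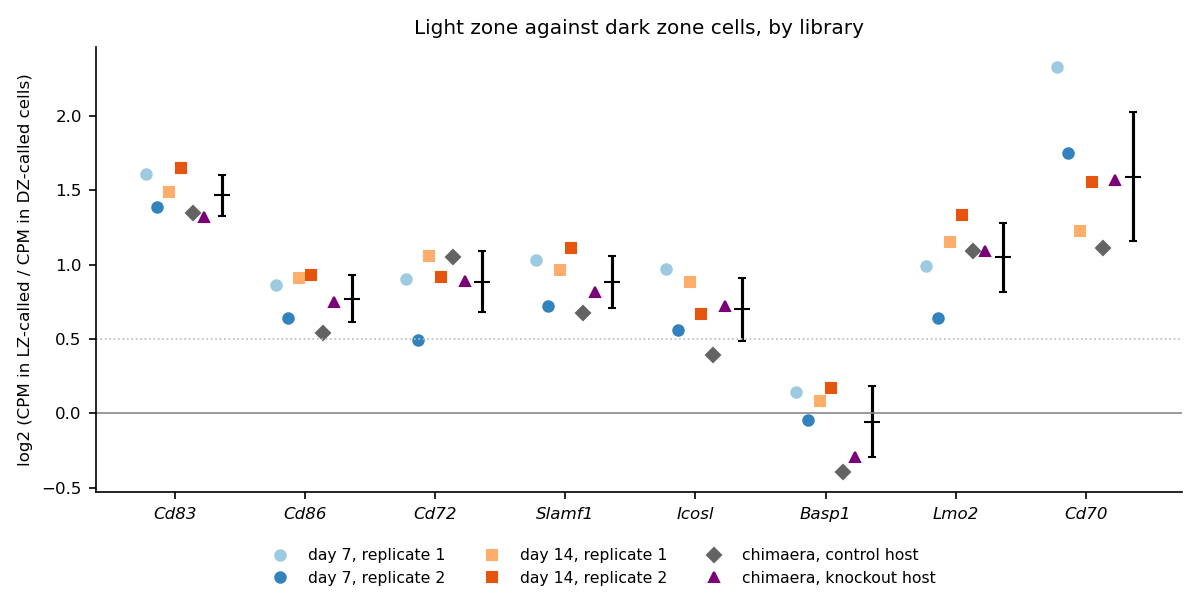
Log2 ratio of the level in LZ-called to that in DZ-called cells for each gene (x axis) and library (coloured points), with the mean and SD over 6 libraries in black. The dotted line marks the size limit of 0.5, and Basp1 alone straddles 0.

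Genes that work with these 8 were compared between zones in the same way. Of the 16 listed B7, TNF ligand and adhesion genes, 8 were at the CPM minimum and 2 were LZ-high, Cd40 (1.03 ± 0.14) and Icam1 (0.84 ± 0.18, SD over 6 libraries). The T cell help receptor CD40 and the adhesion ligand ICAM-1 are products of these genes. None of the 5 SLAM family genes, 6 CD72 partners and inhibitory receptors, and 5 antigen presentation genes linked to CD83 and MARCH1 that were measured met the rule, although the medians of the lists were 0.39, 0.42 and 0.47 against -0.0027 over all 5507 genes. In the LMO2 complex list, Lmo4 was lower in LZ-called cells (-0.76 ± 0.19).

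Clusters sharpened this picture, and the levels are again descriptive because the clusters were drawn on the same transcripts. The authors' clusters were called light zone-like, dark zone-like, MYC-like, memory precursor-like or plasma-like where marker genes other than the 8 supported the name and no other class had more markers among the 10 leading genes, and otherwise kept their number. Day 7 cluster 3 kept its number by this rule: its memory precursor markers were raised (9 of 9), but haemoglobin genes led it. MYC-like cells, named for raised Myc and growth genes, were high for Cd83 in all 3 tables. In the chimaeras 51.7% of them were LZ-called and 48.3% DZ-called. They held 435 and 308 CPM at day 7, 435 and 461 CPM at day 14, 422 CPM for control and 437 CPM for KO. In the chimaeras the light zone-like cluster 0 was above them, at 486 and 707 CPM, and Cd83 was itself among the leading genes of that cluster. At day 14 the plasma-like cluster 8, with 105 and 93 cells, was above the MYC-like one in replicate 1 (600.3 CPM) and below it in replicate 2 (445 CPM), and the counting intervals of these 2 clusters overlapped. The mitotic dark zone-like cluster 4 was lowest at day 14, with 85.4 and 89.98 CPM, and overlapped the plasma-like cluster 9.

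Cd70 marked the MYC-like clusters most sharply. It reached 23.7 and 30.3 CPM at day 7 and 17.4 and 22.0 CPM at day 14 there, while the chimaera cluster held 10.2 and 6.79 CPM. Outside those cells, no other cluster of the chimaeras exceeded 2.73 CPM. At day 14 the plasma-like cluster 8 (14.6 and 24.2 CPM, on only 4 and 6 UMIs) overlapped the MYC-like one, and at day 7 the next cluster in order did not. The plasma-like cluster 9 of day 14 held 5.14 and 14.4 CPM on 2 and 5 UMIs.

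Memory precursor-like cells had a profile of their own among these genes. Lmo2 was highest there in the day 14 table, with 115 and 142 CPM, and in the chimaeras, with 129 and 106 CPM for control and KO. At day 7 it was highest in the unnamed cluster 3, with 95.7 and 103 CPM. Cd72 was high as well, at 239 and 210 CPM at day 14 and 204 and 112 CPM in the chimaeras, but not only there. At day 14 cluster 1 held 197 and 224 CPM and the plasma-like cluster 8 held 222 and 291 CPM. The light zone-like chimaera cluster 0 held 201 and 133 CPM. Basp1 was low in memory precursor-like cells, at 208 and 202 CPM at day 14 and 143 and 127 CPM in the chimaeras, where only plasma-like cells were lower. Slamf1 was also low, at 50.8 and 59.9 CPM at day 14, below all clusters but a plasma-like and a mitotic dark zone-like one.

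Plasma-like cells were low for most of the 8. In the chimaeras their cluster 7 was lowest in both libraries for Cd83, Cd86, Slamf1, Icosl, Basp1 and Lmo2, and for Cd72 in the control library only. Cd86 was at 6.64 and 6.32 CPM there against 77.9 and 103 CPM in light zone-like cells. Lmo2 stood at 6.94 and 9.84 CPM. At day 14 cluster 9 was of this kind (Cd86 at 7.71 and 17.2 CPM), whereas cluster 8, named plasma-like by the same markers, had high levels of several of the 8. Its Slamf1 level (196 and 182 CPM) was the highest of that table in both libraries. For Cd83, Cd86, Cd72 and Icosl it came first by the mean of the libraries, but for each of them another cluster was higher in 1 library, as for Cd86 in replicate 2 (72.7 CPM against 95.7 CPM in cluster 1).

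**Figure D2:**
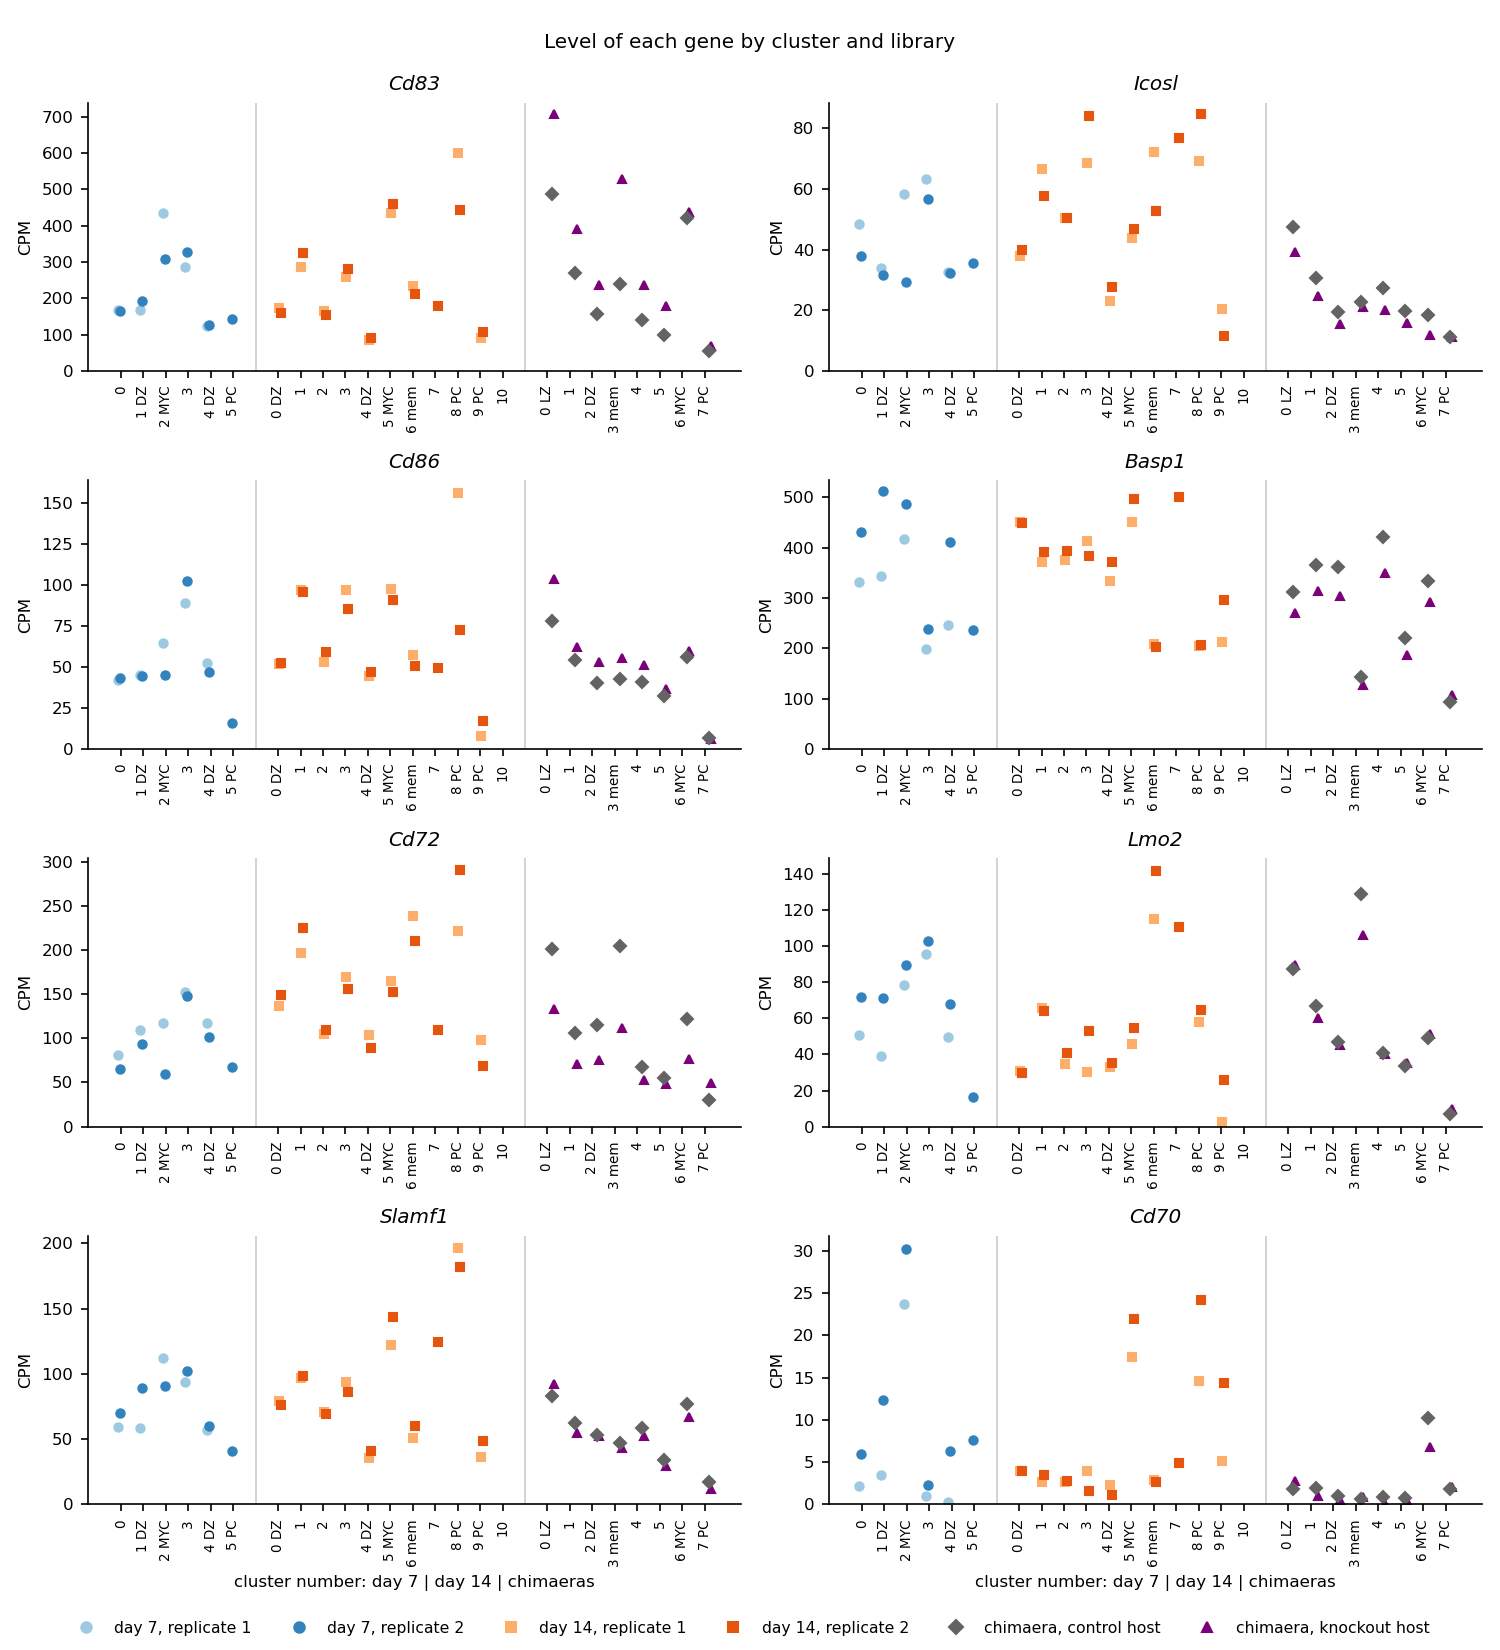
Level of each gene in CPM (y axis, linear) in every cluster of at least 50 cells per library (x axis, 3 tables), 1 point per library. Names are shortened to LZ, DZ, MYC, mem (memory precursor-like) and PC (plasma-like), and an empty position had under 50 cells in each library. Cd70 stands out in the MYC clusters (and in cluster 8 at day 14, on 4 and 6 UMIs) and Lmo2 in the memory precursor-like ones.

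The genes with the most similar profiles were sought over the 46 library-by-cluster sums, centred within the 6 libraries, among 5466 genes. These points share cells, libraries and depth, so the Pearson correlations of log2(CPM + 1) are given as a description. Cd83 was most like Slamf1 (0.90), Tnfrsf13c (0.88) and Cd40 (0.85). Slamf1 was most like Swap70 (0.93), Cd83 (0.90) and Fnbp1 (0.90), so these 2 named each other. For Cd86 the nearest were Rel (0.95), Bcl11a (0.94) and Jak1 (0.93), and for Cd72 Napsa (0.88), Zfp36l1 (0.86) and Plxnc1 (0.86). Icosl was nearest to Ikzf3 (0.90), Slc15a4 (0.86) and Fam117b (0.85), and Lmo2 to H2-Oa (0.90), Twf2 (0.89) and Fam49b (0.89). Basp1 was nearest to Rcc2, Sf3b2 and Srrm2 (0.87 each) and was unrelated to Cd72 (-0.01) and weakly related to Cd83 (0.26).

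The chimaeras ask what changes in B cells when host cells with Ccl19-driven Cre lack the IL-4 receptor. With 1 library per host no test exists, so ratios are given with exact 95% intervals that cover counting error only. The ratio of the 2 day 14 libraries is set beside them as the difference within 1 pair of the same group. For all 8 genes the day 7 pair differed more than the day 14 pair, so the day 14 pair is the narrower comparison. Over the symbols of both wild-type tables, the SD (n = 2) was 8.21 CPM at day 7 and 0.845 CPM at day 14 for Icosl. For Lmo2 it was 11.6 and 1.85 CPM. The labels do not say that the libraries of a pair came from separate animals. Cd83 was higher and Cd72 lower in the KO library, a contrast of these 2 genes that was known when they were chosen. The Cd83 level was 249 CPM (control) against 386 CPM (KO), which is 0.64 on the log2 scale (0.61 to 0.66). The day 14 libraries held 214 and 216 CPM (0.01, -0.03 to 0.06), and the day 7 libraries 224 and 216 CPM, so the KO library was above the other 5. For Cd72 it was 128 CPM (control) against 82.9 CPM (KO), or -0.63 (-0.68 to -0.58). The day 14 libraries were level at 151 and 151 CPM (0.00, -0.05 to 0.05), while the day 7 libraries held 115 and 84.3 CPM, the second of them close to the KO level. A log2 ratio of at least 0.5 with an interval excluding equality was reached upward by 0.886% and downward by 2.49% of 5189 genes, and Cd83 ranked 19 from the top and Cd72 24 from the bottom of 4933 genes without immunoglobulin and other repetitive families. Between the day 14 libraries 0.310% of 6136 genes passed upward and 0.522% downward. Without immunoglobulin genes in the totals the number passing downward in the KO library fell from 129 to 50, and Cd72 was at -0.64. The median log2 ratio over genes moved from 0.012 to 0.0011 in that setting, so ratios were slightly lower, not higher. Which genes left the count is not given here, and the cause of the fall was not tested.

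The opposite shifts were seen cluster by cluster. Ratios of at least 0.5 with an interval excluding equality were reached upward by 1.61, 0.719, 0.762, 2.02, 1.51, 1.39, 1.73 and 9.27% of genes in clusters 0 to 7, and downward by 1.44, 0.874, 1.09, 3.81, 2.01, 1.46, 1.93 and 3.34%. For Cd83 the ratio was above 1 in 8 of 8 clusters, which held for 8.90% of genes, and the interval excluded equality in 6. The memory precursor-like cluster 3 moved most, from 240.1 to 528 CPM (log2 1.14, 1.07 to 1.20). Light zone-like cluster 0 went from 486 to 707 CPM (0.54). Dark zone-like cluster 2 went from 157 to 237 CPM (0.59) and the mostly S-called cluster 1 from 269 to 390.3 CPM (0.54). The histone-rich cluster 4 went from 141 to 238 CPM (0.76). Cluster 5, in which 48.4% of cells were G2M-called, went from 98.6 to 180.5 CPM (0.87). The MYC-like cluster 6, already high for Cd83, was near equal at 422 and 437 CPM (0.05, -0.03 to 0.14). In plasma-like cluster 7 the interval of 0.29 (-0.08 to 0.65) covered equality.

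Cd72 was lower in 7 of 8 clusters, which held for 14.4% of genes in that direction, with 6 intervals below equality. The memory precursor-like cluster again moved most, from 204 to 112 CPM (-0.87, -0.98 to -0.76). Light zone-like cells went from 201 to 133 CPM (-0.60), dark zone-like cells from 115 to 75.1 CPM (-0.62) and MYC-like cells from 122 to 76.3 CPM (-0.67), so this cluster showed the Cd72 difference without the Cd83 one. By CPM, plasma-like cluster 7 went the other way, from 29.9 to 49.2 CPM (0.72, 0.26 to 1.18), on 99 and 70 UMIs. The shares of thinned cells given below do not show this, so no order is read there. Between the day 14 libraries, log2 ratios over 9 clusters ran from -0.43 to 0.24 for Cd83 and from -0.50 to 0.39 for Cd72, and the Cd83 ratios of clusters 6 and 7 and the Cd72 ratios of clusters 4 and 5 were no larger in size than those. The gene Tesk1 overlaps Cd72 on the other strand and was level at 8.31 and 8.44 CPM.

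**Figure D3:**
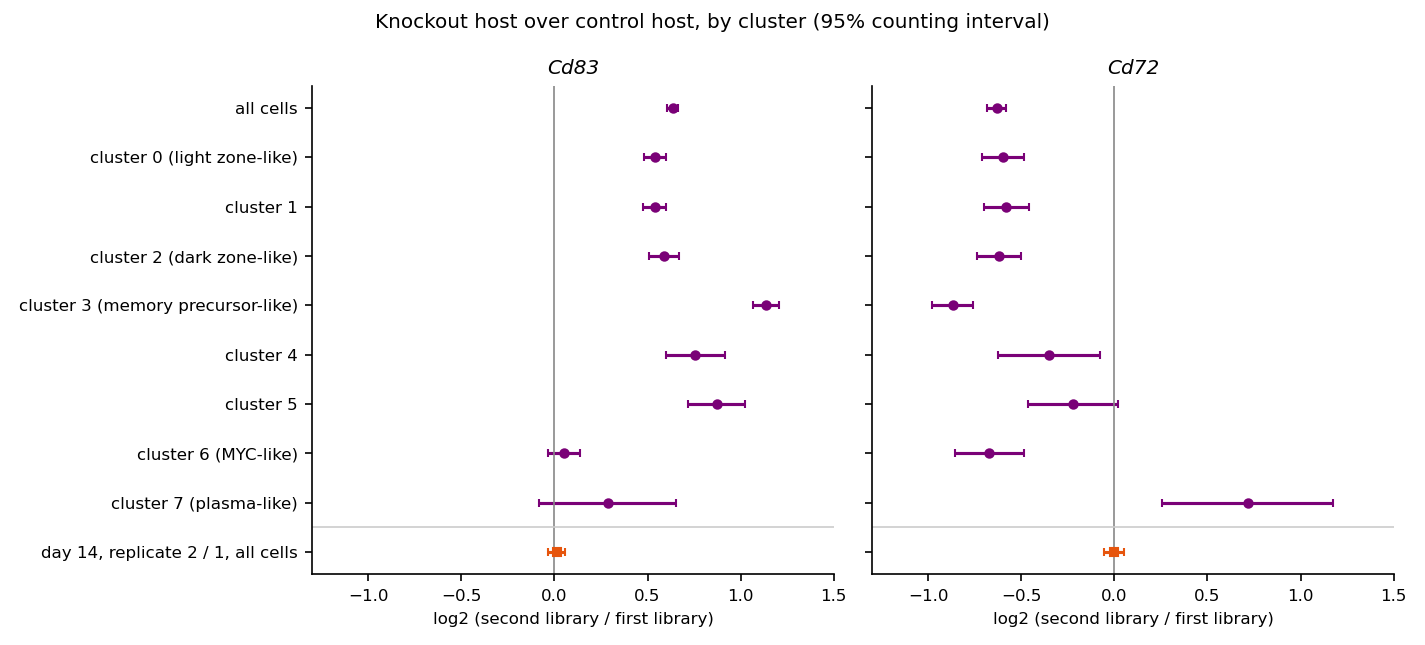
Log2 ratio of the KO to the control library for Cd83 and Cd72 (x axis) over all cells and in each chimaera cluster (y axis), with exact 95% counting intervals. The square gives the ratio of the day 14 libraries over all cells. Cd83 lies right of 0 in all 8 clusters and Cd72 left of it in 7.

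Zone and phase calls gave the same directions. For Cd83 the log2 ratio was 0.68 in LZ-called and 0.71 in DZ-called cells, and 0.79, 0.58 and 0.64 in G1-, S- and G2M-called cells. For Cd72 it was -0.66 in LZ-called and -0.50 in DZ-called cells, and -0.60, -0.62 and -0.54 by phase. Over 9 other ways of weighting, scaling or selecting the cells, Cd83 ranged from 0.60 to 0.71 and Cd72 from -0.69 to -0.60.

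Counted by cell after thinning each cell to 2000 UMIs, Cd83 was detected in 33.1% of 7648 control cells (exact 95% interval 32.0 to 34.1%) and in 46.9% of 7055 KO cells (45.7 to 48.1%). Cd72 was detected in 19.5% (18.7 to 20.5%) and 14.8% (13.9 to 15.6%). Thinning kept 7648 of 8038 control and 7055 of 7314 KO cells, and without it the shares were 58.6% and 76.0% for Cd83 and 41.2% and 35.2% for Cd72. In plasma-like cells, where both genes are low, thinned detection was 9.51% and 14.2% for Cd83 and 8.10% and 6.72% for Cd72, at median depths of 12357 and 10108.5 UMIs, so no order is read from Cd72 in that cluster, where shares and CPM disagree. Cells with Cd83 alone made up 24.0% and 38.0% and cells with Cd72 alone 10.5% and 5.84%, while cells with both made up 9.09% and 8.93%. In the memory precursor-like cluster Cd83 was detected in 34.2% and 60.1% of thinned cells and Cd72 in 29.7% and 19.6%.

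**Figure D4:**
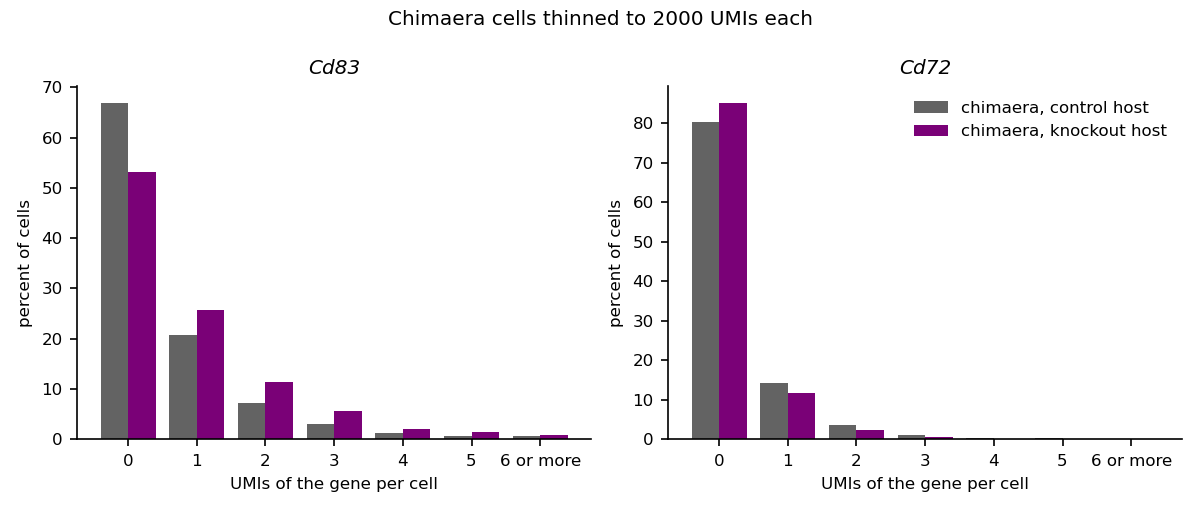
Percent of chimaera cells (y axis) by number of Cd83 or Cd72 UMIs (x axis) after thinning each cell to 2000 UMIs, for the control (grey) and KO (purple) library. Cells without Cd83 are fewer in the KO library and those with 1 to 3 UMIs more frequent, while cells without Cd72 are more frequent.

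The other 6 genes differed less over all cells. Cd86 was at 47.3 CPM (control) and 60.0 CPM (KO; log2 0.34, 0.27 to 0.41), above 1 in 7 of 8 clusters with 5 intervals above equality, and 0.49 in LZ-called against 0.28 in DZ-called cells. Icosl was 25.9 and 21.6 CPM (-0.26, -0.37 to -0.16), with -0.37 in DZ-called and -0.04 in LZ-called cells, where the interval covered equality. Basp1 was 291 and 261 CPM (-0.15, -0.18 to -0.12), with 7 of 8 intervals below equality. Those Basp1 ratios were small and even, from -0.27 to -0.17 in the 7 clusters, and the day 14 libraries differed by 0.10 (0.07 to 0.13). Lmo2 was 67.6 and 62.3 CPM (-0.12, -0.18 to -0.05), and the memory precursor-like cluster had the lowest value, -0.28 (-0.40 to -0.16). Slamf1 was 56.5 and 54.9 CPM (-0.04, -0.11 to 0.03), and its sign turned under 2 of the 9 alternatives. Cd70 had only 128 and 90 UMIs (-0.45, -0.85 to -0.05). Over all cells none of these 6 reached the size limit of 0.5, but some did in subsets of cells. Cd86 was at 0.61 (0.48 to 0.74) in LZ-called G1 cells and at -0.11 in DZ-called G1 cells, where the interval covered equality. Icosl was at -0.62 (-1.10 to -0.14) in the MYC-like cluster, on 99 and 60 UMIs. In DZ-called S cells Icosl was at -0.56 (-0.81 to -0.31).

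The partner lists did not reach the size limit over all chimaera cells either. None of 7 B7, TNF ligand and adhesion genes, 5 SLAM family genes, 6 CD72 partners and inhibitory receptors, 5 antigen presentation genes and 4 LMO2 complex genes at the CPM minimum was past it, and the list medians lay between -0.08 and 0.05 against 0.01 over all genes. The largest in each direction were Fcgr2b, the inhibitory Fc receptor, at 116 and 92.0 CPM (-0.33, -0.38 to -0.28) and Icam2 at 36.2 and 42.1 CPM (0.22, 0.14 to 0.30). The MHC class II genes H2-Aa (0.08) and H2-Eb1 (0.05), Cd74 (0.06) and March1 (-0.07) stayed within 0.1 as RNA. CD83 is known to act on MARCH1 and MHC class II as proteins, which these levels do not measure. The share of cells in the memory precursor-like and plasma-like clusters, which differ in these genes, also differed between the libraries (1304 and 945 cells, 288 and 136 cells), and with equal cluster shares Cd83 was at 0.62 and Cd72 at -0.62. Plasma markers summed to 3606 and 2483 CPM (9 of 9 detected, 5 at 20 CPM or more in both libraries) and memory precursor markers to 353 and 254 CPM (9 of 9 detected). Immunoglobulin transcripts made up 2.36% and 1.45% of UMIs. Without the plasma-like cluster Cd83 was at 0.60 and Cd72 at -0.68.

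Cell cycle phase was compared within libraries by edgeR's quasi-likelihood test over 18 sums (6 libraries by 3 authors' phase calls), with the library as a block and Benjamini-Hochberg adjustment over 10964 genes. Cd83, Cd86, Cd72, Slamf1, Icosl and Lmo2 fell from G1 to G2M and Basp1 rose, at a background of 29.4% of genes higher and 32.4% lower. Cd83 was at 300.1 and 296 CPM in G1-called cells at day 7, 287 and 318 CPM at day 14, 334 CPM for control and 579 CPM for KO. In G2M-called cells it was at 144 and 158 CPM, 159 and 149 CPM, 173 CPM and 269 CPM, below G1 in 6 of 6 libraries. The log2 change was -0.94 (SE 0.05, adjusted p = 3.53e-12, edgeR). Lmo2 (-0.75), Icosl (-0.72), Cd86 (-0.64), Cd72 (-0.44) and Slamf1 (-0.43) also fell, with adjusted p between 1.6e-10 and 8.49e-07 (edgeR). Basp1 rose by 0.33 (SE 0.04, adjusted p = 4.37e-07, edgeR), from 236 to 335 CPM in the control library and from 290 to 303 CPM in the library with the smallest step. Cd70 did not pass (-0.10, SE 0.13, adjusted p = 0.516, edgeR).

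In S-called cells the same 6 genes were below G1, at a background of 30.1% of genes higher and 35.0% lower. The log2 changes were -0.64 for Lmo2, -0.61 for Cd72, -0.56 for Cd83, -0.55 for Cd86, -0.46 for Icosl and -0.26 for Slamf1, with adjusted p of 9.87e-05 or less (edgeR). Basp1 rose by 0.21 (adjusted p = 8.9e-05, edgeR), and Cd70 at 0.21 did not pass (adjusted p = 0.163, edgeR). Cd83 fell further in G2M than in S, whereas Cd72 was at -0.44 in G2M and -0.61 in S; these steps between S and G2M were not tested. Whether the phase differences changed with the day was tested in the 4 wild-type libraries, a comparison added after seeing the data. Gate, depth and table construction changed with the day as well, so none of them can be told apart from it. At a background of 2.13% of 10958 genes higher and 4.66% lower for S, and 2.33% and 5.19% for G2M, Lmo2 passed for both phases and Cd72 for G2M, and both G2M calls were lost without day 7 replicate 2 (Lmo2 at -0.18) or without either day 14 library.

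The direction turned for several genes once zone was held fixed. Of the G1-called cells 11192 of 16137 were LZ-called, and of the G2M-called cells 11240 of 11589 were DZ-called. From G1 to S within DZ-called cells, Cd72 rose by 0.35 (adjusted p = 0.000239) and Slamf1 by 0.17 (adjusted p = 0.00662), and Cd83 was at 0.14 (adjusted p = 0.0612, edgeR for all), at a background of 24.7% of genes higher and 27.9% lower. Cd72 was higher in S in 6 of 6 libraries. Slamf1 was at -0.02 in the control library and from 0.07 to 0.36 in the others. Within DZ-called cells Cd72 rose from G1 to G2M by 0.70 (SE 0.07, adjusted p = 1.14e-08, edgeR), at a background of 21.4% of 10293 genes higher and 23.6% lower. Its level in DZ-called G1 and G2M cells was 62.6 and 107 CPM, 42.1 and 81.7 CPM in the day 7 libraries, 75.7 and 131 CPM, 86.9 and 132 CPM in the day 14 libraries, 76.6 and 103 CPM in the control and 53.0 and 72.6 CPM in KO. G2M was thus above G1 in 6 of 6 libraries. Slamf1 rose in the same cells by 0.26 (adjusted p = 0.000114), Cd70 by 1.32 (adjusted p = 0.000117, on 0 to 14 UMIs per library in G1) and Basp1 by 0.35 (adjusted p = 3.9e-07, edgeR for all). Cd83 rose by 0.20 (adjusted p = 0.0116, edgeR), but it was lower in G2M in both chimaeras (-0.08 and -0.12), and without the day 7 libraries it was at 0.13 (adjusted p = 0.134, edgeR). Icosl (-0.41) and Cd86 (-0.17) still fell (adjusted p = 3e-05 and 0.0205, edgeR), and Lmo2 was at 0.12 (adjusted p = 0.155, edgeR).

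Within LZ-called cells Cd83 rose from G1 to G2M by 0.54 (SE 0.09, adjusted p = 2.51e-05, edgeR), at a background of 17.6% of 9802 genes higher and 19.9% lower. It was higher in 6 of 6 libraries, from 368 to 648 CPM, 355 to 590 CPM, 367 to 633 CPM, 416 to 589 CPM, 405 to 638 CPM and 696 to 799 CPM, in the order given for G1. Slamf1 rose by 0.60 (adjusted p = 0.000148) and Cd70 by 2.18 (adjusted p = 9.31e-09, edgeR for both), the latter on 3 to 72 UMIs per library in G2M. Slamf1 was higher in 5 of 6 libraries, and in day 7 replicate 1 it was lower (109 to 38.7 CPM, on 4 UMIs in G2M). Lmo2 and Icosl were lower in G2M in every library, some on few UMIs. Cd72 went both ways, from log2 1.17 to -1.02 in the day 7 libraries. From G1 to S, Cd83 also went both ways, from 0.31 in day 7 replicate 1 to -0.39 in KO. Only 344 LZ-called cells were in G2M, from 4 and 33 at day 7 to 102 in a day 14 library, and 44.8% of them lay in MYC-like clusters against 7.72% of LZ-called G1 cells. Without the MYC-like clusters Cd83 was at 0.59 (adjusted p = 0.00377), Slamf1 at 0.49 (adjusted p = 0.0425) and Cd70 at 2.67 (adjusted p = 0.000136, edgeR for all). Without the day 7 libraries Cd83 was at 0.41 (adjusted p = 0.00106, edgeR). Since both calls come from the same transcripts, whether the zone call itself picks cells by these genes was not tested.

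**Figure D5:**
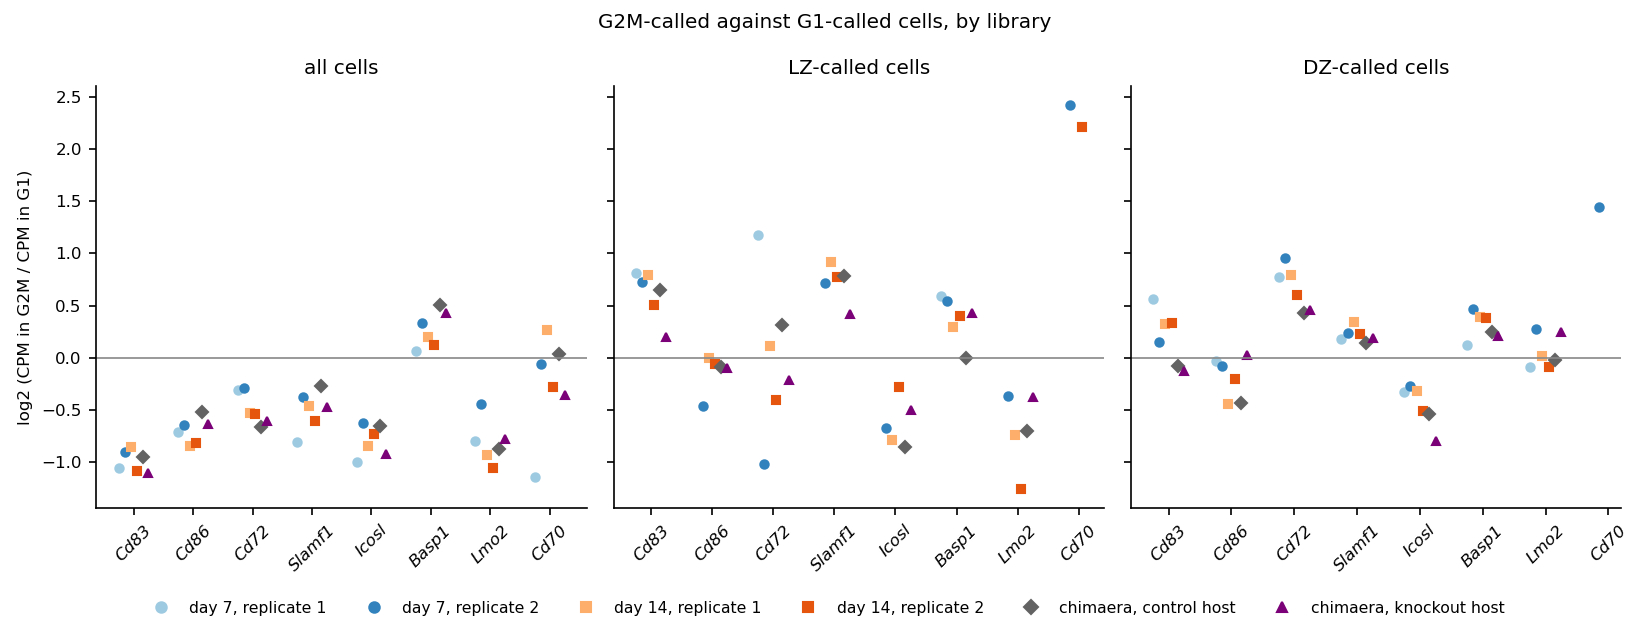
Log2 ratio of the level in G2M-called to G1-called cells (y axis) for each gene (x axis) and library (points) in all cells, LZ-called cells and DZ-called cells. Points with under 10 UMIs in either phase are not drawn, among them Slamf1 in LZ-called cells of day 7 replicate 1. Cd83 and Slamf1 lie below 0 in all cells and above it in LZ-called cells, and Cd72 lies above 0 in DZ-called cells.

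The partner lists are read against the 29.4% of all genes that rose and the 32.4% that fell in G2M. These changes are over all cells, where most G1-called cells were LZ-called and most G2M-called cells DZ-called. Zone and phase are therefore not separated in them, and no values within a zone are given. Of 13 tested B7, TNF ligand and adhesion genes, 9 fell and 2 rose in G2M, led by Pdcd1lg2 (-1.46) and Tnfrsf14 (-0.86). All 10 CD72 partners and inhibitory receptors fell, from Pirb (-1.63) and Ceacam1 (-1.40), and all 5 antigen presentation genes fell, among them H2-Aa (-0.47) and Cd74 (-0.41). In the SLAM family 2 of 7 fell, a share close to that of all genes, Cd84 (-0.78) and Cd48 (-0.18), while Slamf7 rose (0.48), and in the LMO2 complex list Hhex fell (-1.86) while Lmo4 (0.62), Tcf3 (0.42) and Lyl1 (0.21) rose. List medians were -0.42, -0.49, -0.43, -0.08 and 0.21 against -0.03 over all genes, and each change named passed at an adjusted p of 0.0288 or less (edgeR).

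Day 14 was compared with day 7 by edgeR on 2 libraries each over the symbols that both tables list. Gate, depth and table construction changed with the day and cannot be told apart from it, and 34.9% of 11995 genes passed upward and 33.0% downward, so calls among the 8 genes are read against that. Lmo2 was lower at day 14, at 61.7 and 78.0 CPM on day 7 against 47.8 and 50.4 CPM on day 14 (log2 -0.70, SE 0.13, adjusted p = 0.00334, edgeR), and the groups did not overlap. Cd72 was higher, at 117 and 85.7 CPM against 155 and 154 CPM (0.43, SE 0.13, adjusted p = 0.0253, edgeR). Cd70 was lower, at 5.40 and 12.9 CPM against 4.35 and 4.99 CPM (-1.21, SE 0.39, adjusted p = 0.0324, edgeR), with day 7 replicate 2 far above the other 3 libraries. Cd83 passed at -0.21 (SE 0.06, adjusted p = 0.0173, edgeR) although plain CPM overlapped, at 228 and 219.8 against 219.98 and 221, and the scaled levels were 237 and 237 against 208 and 209. Without either day 14 library, Cd83 and Cd72 lost the call (adjusted p = 0.207 and 0.21 for Cd83, 0.0585 and 0.053 for Cd72, edgeR), and Cd70 lost it without day 7 replicate 2 (-0.38, adjusted p = 0.11) or day 14 replicate 1 (-1.11, adjusted p = 0.0585, edgeR). Cd86 (0.13), Slamf1 (-0.12), Icosl (0.07) and Basp1 (-0.07) did not pass, with adjusted p from 0.163 to 0.757 (edgeR), and Basp1 differed more between the day 7 libraries (301 and 441 CPM) than between the days. In the partner lists 7 of 14 tested B7, TNF ligand and adhesion genes passed between the days, 3 higher (among them Cd27, the receptor of CD70, at 1.54) and 4 lower (among them Cd24a at -0.81 and Cd40 at -0.71). Of 5 antigen presentation genes 4 were lower, led by H2-Aa (-1.96), and March1 was higher (0.63), each past the threshold in edgeR.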

How the data were processed

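Gene-by-cell tables of whole-number counts (UMIs) for 6 libraries were used as the authors deposited them, in 3 tables (day 7, day 14, chimaeras), with the authors' cluster, zone and phase labels per cell. Per the submitters' processing notes, Cell Ranger, Seurat and the mm10 build were used. How clusters, zones and phases were called, and how doublets were treated, is not given in the sources used here, and no doublet caller was run. The day 7 table lists no immunoglobulin symbols. One further column of per-cell values (1 in all) was not used.

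Counts were summed per library and label (at least 50 cells for clusters) and divided by all counts of those cells (CPM). Day 14 against day 7 (2 against 2 libraries) and phase (library as block) were tested with edgeR 4.0.16 in R 4.3.3 (quasi-likelihood, TMM, Benjamini-Hochberg, adjusted p of 0.05). DESeq2 1.42.0 was an alternative. Ratios of 2 libraries have exact conditional binomial 95% intervals, which cover counting error only. Descriptions used Python 3.11.15, numpy 2.4.6, scipy 1.17.1 and pandas 2.3.3, and figures matplotlib 3.10.9. Clusters were named where the class's markers, without the 8 genes, were raised by a median log2 of 0.5 (pseudocount 5 CPM) with at least 3 raised, and no other class had more markers among the cluster's 10 leading genes. Tested on simulated data, the day comparison recovered 86% of genes changed by log2 1 and 100% of those changed by log2 2, with 6 false calls among 11921 genes, and the G2M comparison 100% of both, with 12 among 10919.

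The 8 genes and all lists were chosen with earlier results of these data known. Named genes are the 8, up to 4 genes per partner list with the largest change, and the 3 genes most like each of the 8 at 20 CPM or more. Marker sums over the 6 libraries were 4317 to 5082 CPM for germinal centre B cells, 55.8 to 125 CPM for T cells (nearly all Lck), 30.5 to 63.6 CPM for myeloid and 59.5 to 639 CPM for erythroid cells.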

Additional observations from a re-analysis of the deposited data

Results flagged for a closer look

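Gate, depth and table construction changed with the day and cannot be told apart from it in what follows. The phase difference of Lmo2 differed between the days in the 4 wild-type libraries. This interaction was added after seeing the data and tested with edgeR, where 2.13% of 10958 genes were higher and 4.66% lower for S against G1. For Lmo2 the S against G1 difference was more negative at day 14 than at day 7, by -0.56 (adjusted p = 0.000818, edgeR), from -0.29 and -0.32 at day 7 to -0.87 and -0.84 at day 14. Without each library in turn it stayed past the threshold, with a highest adjusted p of 0.0485 (edgeR). For G2M against G1, Lmo2 differed by -0.45 (adjusted p = 0.00479) and Cd72 by -0.24 (adjusted p = 0.0305, edgeR), at a background of 2.33% higher and 5.19% lower. Lmo2 lost this call without day 7 replicate 2 (-0.18, adjusted p = 0.522) or either day 14 library (adjusted p = 0.0672 and 0.232), and Cd72 lost it without the same 3 libraries (adjusted p = 0.127, 0.260 and 0.300, edgeR).

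Basp1 was higher in LZ-called cells in both day 14 libraries (log2 0.082 and 0.17) and lower in the control (-0.39) and KO (-0.29) libraries of the same day and gate. The difference was not tested.

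Cd72 was higher in the KO library in plasma-like cluster 7 (log2 0.72) and lower in clusters 0 (-0.60), 1 (-0.58), 2 (-0.62), 3 (-0.87), 4 (-0.35) and 6 (-0.67). The difference between clusters was not tested, and cluster 7 rests on 99 and 70 UMIs. With cells thinned to 2000 UMIs, the share of them with a Cd72 UMI was 8.10% (control) and 6.72% (KO) with overlapping intervals, against 20.1% and 25% unthinned at medians of 12357 and 10108.5 UMIs, so no order is read from Cd72 in that cluster.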

How the results depend on the processing

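Between day 14 and day 7, leaving out each library in turn gave 3195 to 4396 genes higher and 3106 to 4478 lower, and turned Icosl (-0.11 to 0.20) and Basp1 (-0.38 to 0.26). In LZ-called cells only, Slamf1 was at 0.024 and Basp1 at 0.0092, and with cells thinned to 500 UMIs Basp1 was at 0.055, with 2676 genes higher and 2559 lower. Same-numbered replicates were only weakly alike (correlation of deviations 0.174 over 12053 genes). With the replicate number as a block 4327 genes were higher and 4074 lower, and no call among the 8 genes changed.

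Phase calls gave 3118 to 3217 genes higher and 3352 to 3698 lower for S, and 3049 to 3147 and 3188 to 3414 for G2M, without each library in turn. Without the library block there were 885 and 553 for S and 856 and 550 for G2M. In LZ-called cells, S against G1 was 0.041 for Slamf1, and G2M against G1 gave 1728 genes higher and 1950 lower, with Cd83 at 0.54, Slamf1 at 0.60 and Cd70 at 2.18. In DZ-called cells, S against G1 was 0.14 for Cd83, 0.35 for Cd72 and 0.17 for Slamf1, and G2M against G1 was 0.20, 0.70 and 0.26, with Lmo2 at 0.12 and Cd70 at 1.32. The next 4 settings were chosen after seeing the data. LZ-called cells without MYC-like clusters gave 701 genes higher and 821 lower, with Cd83 at 0.59, Slamf1 at 0.49 and Cd70 at 2.67. DZ-called cells without them gave 2144 higher, with Cd83 at 0.17, Cd72 at 0.71, Slamf1 at 0.25, Lmo2 at 0.10 and Cd70 at 1.23. LZ-called cells without the day 7 libraries gave 1268 and 1529, with 0.41 for Cd83, 0.63 for Slamf1 and 1.86 for Cd70. DZ-called cells without those libraries gave 1772 and 2104, with 0.13 for Cd83, 0.60 for Cd72, 0.26 for Slamf1, 0.081 for Lmo2 and 1.05 for Cd70.

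In G1-called cells only, 89 genes were lower in LZ-called cells. Between KO and control, genes lower numbered 81 with equal cluster shares, 73 without plasma-like clusters, 50 without immunoglobulin genes in the totals and 78 in cells at or below the median UMI count, a setting chosen after seeing the data. Cd83 was at 0.60 without plasma-like clusters, 0.67 with cells thinned to 1000 UMIs and 0.71 at or below the median, and Cd72 at -0.69 when thinned. The cause of these moves was not tested. Cd70 is limited by depth, with 128 and 90 UMIs in the chimaera libraries.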

Other observations

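Cluster 7 of the day 14 table held 321 cells, all from replicate 2, and was not named by its markers. Its Basp1 level was 499.7 CPM, Slamf1 124 CPM, Lmo2 111 CPM and Icosl 76.9 CPM. Lmo2 there was second only to the memory precursor-like cluster of that table.

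Cells with no zone call numbered 643 (control) and 360 (KO). Cd83 stood at 145 and 295 CPM in them (log2 1.02, 0.84 to 1.21), Cd72 at 90.5 and 53.99 CPM (-0.75, -1.10 to -0.40) and Cd86 at 51.4 and 67.8 CPM (0.40, 0.04 to 0.75), with exact 95% counting intervals.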
